A study of Mus musculus with 3 samples.

Results

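At E17.5, an embryonic stage shortly before birth, 2149 cells of the mouse small intestine carried the fibroblast collagen gene Col1a2 together with high levels of the inflammatory chemokine genes Ccl2, Cxcl1 and Cxcl10. They were chosen on their own counts: at least 2 unique molecular identifiers (UMIs, 1 per captured RNA molecule) of Col1a2, at least 10 UMIs of Ccl2, Cxcl1 and Cxcl10 together, no UMI of Tyrobp, a gene of myeloid cells, and at most 2 UMIs of the epithelial gene Epcam. They made up 32.2% (31.1 to 33.3%) of the 6679 cells with at least 2 UMIs of Col1a2, in a library of 11598 cells. They are set against 3335 comparison cells of the same library with at least 2 UMIs of Col1a2 and a chemokine sum of 0 to 2. The chosen cells held 14441880 UMIs, with medians of 5973 UMIs and 2222 genes per cell, and the comparison cells held 22624574 UMIs, with medians of 5635 UMIs and 2124 genes. The mitochondrial share of UMIs was 3.94% in the chosen cells and 4.79% in the comparison cells.

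The series holds 1 library each of wild-type, untreated small intestine at E15.5, at E17.5 and at 7 days after birth (P7), 28436 cells in all. Per the labels' protocols, the dissociated tissue went through a sort for live cells that kept Epcam-positive cells and those lacking Epcam, CD31 and CD45, a gate meant to leave out endothelial and blood cells. Neither strain nor sex, nor how many animals a library pooled, is given in the sources used here. With 1 library per stage no test between groups exists, and the values below describe this library. Intervals in parentheses are exact 95% intervals for counting error (Clopper-Pearson for shares, conditional binomial for ratios). Differences between animals, dissections or sorts are not in them. Intervals of ratios and levels take each UMI as independent, so they leave out the spread among cells as well. Parentheses after the median ratio of a gene list instead hold the medians of its genes' lower and upper limits. Those are not an interval of the list median and leave out the spread among genes.

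Ccl2 encodes a chemokine that attracts monocytes, Cxcl1 one that attracts neutrophils, and Cxcl10 one that attracts activated T cells and is also induced by interferons. Transcription factors of the NF-kB family are held in the cytoplasm by inhibitor proteins such as the product of Nfkbia. Cytokines and microbial products release them, and their targets include these chemokines, adhesion molecules and the inhibitors themselves. Dissociating tissue into single cells is known to induce another set of genes, chiefly the immediate early transcription factors of the Fos, Jun and Egr families and the heat shock proteins. Some genes, Nfkbia among them, respond to both.

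The 3 chemokine genes that chose the cells lie in known gene clusters. Ccl2 (GRCm38, chr11:82035571-82037453, plus strand) is followed by Ccl7, Ccl11 and Ccl12 within 67830 bp. Cxcl1 (chr5:90891241-90893115, plus strand) lies with Cxcl5 and Cxcl2 within 146579 bp, and Cxcl10 (chr5:92346638-92348889, minus strand) lies with Cxcl9 within 27543 bp.

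Promoters are shown for 3 chemokine genes of the chosen cells (Cxcl1, Cxcl2 and Cxcl10), for Nfkbia, which had the highest ratio of the genes that answer to both programmes, for Icam1 of the NF-kB type and for Fos of the immediate early type. Each is a RefSeq window (GRCm38.p6) of 250 bases before to 50 after the start, on the gene's strand. Capitals mark matches on either strand to 4 motifs: kappaB, the NF-kB site; CArG, the serum response site; AP-1, the Fos and Jun site, searched as TGANTCA; and ISRE, the interferon response element, searched as GAAA, any 2 bases and GAAA.
Cxcl1: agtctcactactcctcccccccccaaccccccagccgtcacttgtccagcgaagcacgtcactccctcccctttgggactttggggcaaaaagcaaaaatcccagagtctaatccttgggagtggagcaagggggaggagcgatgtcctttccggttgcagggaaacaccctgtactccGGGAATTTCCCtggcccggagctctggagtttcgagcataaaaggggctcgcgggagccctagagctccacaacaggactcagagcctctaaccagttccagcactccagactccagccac
Cxcl2: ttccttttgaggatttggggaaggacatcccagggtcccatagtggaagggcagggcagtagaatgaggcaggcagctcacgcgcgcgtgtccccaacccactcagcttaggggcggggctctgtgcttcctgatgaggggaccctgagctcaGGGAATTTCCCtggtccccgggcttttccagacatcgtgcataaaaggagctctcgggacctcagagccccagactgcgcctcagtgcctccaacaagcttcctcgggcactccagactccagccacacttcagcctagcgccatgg
Cxcl10: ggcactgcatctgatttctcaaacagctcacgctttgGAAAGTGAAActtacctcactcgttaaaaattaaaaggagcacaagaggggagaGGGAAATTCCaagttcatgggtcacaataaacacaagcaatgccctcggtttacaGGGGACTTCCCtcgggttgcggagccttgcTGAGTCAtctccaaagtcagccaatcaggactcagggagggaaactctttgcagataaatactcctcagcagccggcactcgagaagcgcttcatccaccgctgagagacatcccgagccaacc
Nfkbia: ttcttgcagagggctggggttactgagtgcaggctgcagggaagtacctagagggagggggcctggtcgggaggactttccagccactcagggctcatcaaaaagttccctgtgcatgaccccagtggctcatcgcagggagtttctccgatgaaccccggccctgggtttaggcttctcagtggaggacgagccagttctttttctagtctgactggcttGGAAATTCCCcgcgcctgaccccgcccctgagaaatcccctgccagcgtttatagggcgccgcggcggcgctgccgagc
Icam1: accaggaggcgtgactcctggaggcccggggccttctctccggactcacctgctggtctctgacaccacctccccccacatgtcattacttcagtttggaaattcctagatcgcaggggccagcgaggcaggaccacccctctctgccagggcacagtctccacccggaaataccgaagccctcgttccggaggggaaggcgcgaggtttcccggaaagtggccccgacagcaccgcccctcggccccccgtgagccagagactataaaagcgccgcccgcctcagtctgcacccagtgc
Fos: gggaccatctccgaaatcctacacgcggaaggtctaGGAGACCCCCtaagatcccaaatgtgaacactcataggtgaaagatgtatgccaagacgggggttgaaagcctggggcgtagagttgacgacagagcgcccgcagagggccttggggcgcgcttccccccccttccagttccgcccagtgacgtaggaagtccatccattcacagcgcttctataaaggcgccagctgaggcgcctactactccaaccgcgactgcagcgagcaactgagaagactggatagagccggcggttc
The windows are chr5:90890995-90891294 (plus strand) for Cxcl1, chr5:90903649-90903948 (plus strand) for Cxcl2, chr5:92348840-92349139 (minus strand) for Cxcl10, chr12:55492598-55492897 (minus strand) for Nfkbia, chr9:21015690-21015989 (plus strand) for Icam1 and chr12:85473640-85473939 (plus strand) for Fos. Cxcl1 and Cxcl2 share the palindromic kappaB match GGGAATTTCCC, which begins 71 bases before the start of Cxcl1 and 97 bases before that of Cxcl2. Cxcl10 has an ISRE match at -213, kappaB matches at -159 and -104, and an AP-1 match at -74. Nfkbia has 1 kappaB match, at -29, and so has Fos, at -214, while the Icam1 window has no exact match to any of the motifs. The kappaB search asked for GGG, a purine, any 2 bases, 2 pyrimidines and CC, and near matches were not counted. The Icam1 stretch tggaaattcc differs from that pattern at its first base only, so the lack of a match does not show that a site is absent. Of all 32851 mouse promoters in the table, 8.46% hold a kappaB match, 7.81% an AP-1 match, 3.44% an ISRE match and 1.63% a CArG match. A kappaB match stood in 14 of 24 promoters (58.3%) found for 21 of the 29 NF-kB type genes described below, and in 5 of 31 promoters (16.1%) found for 24 of the 29 immediate early genes. CArG matches stood in 6 of those 31 immediate early promoters (19.4%) and in 0 of the 24 NF-kB type promoters. AP-1 matches ran the other way, in 6 of the 24 NF-kB type promoters (25%) and 1 of the 31 immediate early promoters (3.23%). KappaB matches also stood in 9 of 24 promoters of interferon-stimulated genes, 4 of 12 of the genes of both programmes, 4 of 19 of heat shock genes and 5 of 22 of matrix genes. An ISRE match stood in 12 of the 24 interferon-stimulated promoters. These are matches of letters, and binding was not measured.

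Ccl2 had a median of 10 UMIs per chosen cell (range 0 to 134), Cxcl1 of 9 (0 to 101) and Cxcl10 of 7 (0 to 114), values that the rule fixes in part. Their sum had a median of 29 and reached 250. All 3 genes had a UMI in 1134 chosen cells (52.8%), 738 cells (34.3%) had UMIs of 2 of them, and 277 cells (12.9%) had UMIs of 1 alone. The chosen cells held 83.6% of all UMIs of the 3 genes in the library. Just inside the threshold, 196 chosen cells with a sum of 10 or 11 had 580 counts per 1000000 UMIs (CPM) of Nfkbia and 2449 CPM of Fos. Just outside it, 198 cells with a sum of 8 or 9 had 501 CPM of Nfkbia and 2364 CPM of Fos.

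As a gauge of free RNA, the 3 genes were counted in 1266 cells with at least 5 UMIs of Epcam and none of Col1a2. Their median depth was 15837.5 UMIs, against 5788 UMIs in all Col1a2 cells. Asking for no Col1a2 can leave out epithelial cells with fibroblast RNA and so lower the values. Expression by the epithelial cells themselves cannot be told apart from free RNA here. Ccl2 had a UMI in 7.90% of these epithelial cells and in 40.6% of all Col1a2 cells. A sum of 10 or more stood in 6 of the epithelial cells (0.474%). The summed level of the 3 genes was 20.6 CPM in the epithelial cells, against 2159 CPM over all Col1a2 cells.

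Most chosen cells carried fibroblast genes. After every cell was thinned to 5000 UMIs, which left out 695 chosen and 1287 comparison cells below that depth, Dcn, a matrix proteoglycan, had a UMI in 94.6% of chosen and 61.9% of comparison cells. Lum, a related proteoglycan, had one in 87.7% of chosen and 62.1% of comparison cells, and Col1a1 in 98.8% of chosen and 92.3% of comparison cells. The 8 fibroblast markers had a median log2 ratio of CPM, chosen over comparison cells, of 0.46 (0.42 to 0.48). Of them 1 was at least 1.5-fold higher and 0 lower, and the lowest ratio was -0.55. Within clusters their median was -0.10, with 0 higher and 0 lower. Of the pericyte markers, Notch3 was at 59.6 CPM in chosen and 24.4 CPM in comparison cells, and Pdgfrb at 138 CPM in chosen and 58.2 CPM in comparison cells. These were the 2 of 6 pericyte markers at least 1.5-fold higher, and Rgs5 had a log2 ratio of -0.13. Within clusters 0 of 6 were higher or lower, with a median of -0.05. Smooth muscle genes ran the other way: Actg2, an enteric actin, was at 625 CPM in chosen and 7113 CPM in comparison cells, and all 8 smooth muscle markers were at least 1.5-fold lower. The comparison cells are thus a mixture that includes muscle cells with some Col1a2, and 194 of them also fail the Tyrobp or Epcam limit of the rule.

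Because of that mixture ratios are also given in a second form, within clusters. All E17.5 cells were clustered on genes that exclude the chemokines and the NF-kB, immediate early, heat shock and interferon lists. In the 14 clusters with at least 20 chosen and 20 comparison cells, 2090 chosen cells were set against 2772 comparison cells weighted to the same cluster mix. Genes with at least 100 UMIs over both groups were compared, 11780 in all, with the 6 rule genes left out. At least 1.5-fold higher in chosen cells were 979 genes (8.31%), or 316 (2.68%) within clusters, and at least 1.5-fold lower were 1371 (11.6%), or 544 (4.62%) within clusters. The median gene had a log2 ratio of 0.03, and of -0.04 within clusters. Since the rule chose the cells by their counts in this same contrast, these counts and those of the lists below are descriptions.

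Other inflammatory chemokine genes had the highest list median, a log2 ratio of 2.93 (2.80 to 3.07), and of 2.00 within clusters. Cxcl5, which attracts neutrophils, was at 167 CPM in chosen and 6.19 CPM in comparison cells, a log2 ratio of 4.75 (4.51 to 5.01), and of 3.67 within clusters. Cxcl2, a near relative of Cxcl1, was at 377 CPM in chosen and 17.4 CPM in comparison cells, a log2 ratio of 4.44 (4.29 to 4.59), and of 4.0 within clusters. It had a UMI in 32.3% of thinned chosen cells and 3.71% of thinned comparison cells. The monocyte chemokines Ccl7 and Ccl12 had log2 ratios of 3.49 (3.27 to 3.71) and 3.84 (3.20 to 4.55), and within clusters of 2.90 and 3.84, the second, a gene outside the list, from 201 UMIs in chosen and 22 UMIs in comparison cells. Ccl11, which attracts eosinophils, was at 844 CPM in chosen and 163 CPM in comparison cells, and its log2 ratio of 2.37 was 1.11 within clusters. Of the 13 other inflammatory chemokines on the list, 6 had enough UMIs, of which 5 were at least 1.5-fold higher and Ccl9 was lower, at 1.04 CPM in chosen and 8.27 CPM in comparison cells. Within clusters 4 were at least 1.5-fold higher and 0 lower, and Ccl9 had a log2 ratio of -0.52. Of 5 homeostatic chemokines with enough UMIs, 1 was at least 1.5-fold higher and 1 lower. The abundant Cxcl12 and Cxcl13 had log2 ratios of 0.54 and 0.41, and within clusters of -0.02 and -0.28. Ccl21a, a lymphoid tissue chemokine, had 73 UMIs in chosen and 37 UMIs in comparison cells, a log2 ratio of 1.63 (1.04 to 2.24), and of 1.45 within clusters. Ccl25, a chemokine of intestinal epithelium, had a log2 ratio of -1.12 (-1.35 to -0.90), and of 0.05 within clusters, and Ccl19 had 73 UMIs in chosen and 4 UMIs in comparison cells.

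Genes of the NF-kB type were higher in chosen cells almost throughout. They are those not placed on the immediate early, heat shock or shared lists used here. Whether single genes among them also respond to dissociation was not tested. Of 43 on the list, 29 had at least 100 UMIs. Among them 26 were at least 1.5-fold higher and 1 lower, with a median log2 ratio of 1.54 (1.30 to 1.75), and within clusters 24 were higher and 0 lower, with a median of 1.13. Their summed level was 1417 CPM in chosen and 616 CPM in comparison cells, and within clusters 1445 CPM in chosen and 656 CPM in comparison cells.

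Among the subunits, Rel was at 99.6 CPM in chosen and 29.2 CPM in comparison cells, a log2 ratio of 1.77 (1.64 to 1.91). In the same comparison Relb, Rela and Nfkb1 had log2 ratios of 1.56, 1.45 and 1.36, and Nfkb2 of 0.86. All 5 subunit genes stayed at least 1.5-fold higher within clusters, between 1.08 for Rela and 1.57 for Rel. Among the genes that restrain the pathway, Tnfaip3, which encodes the deubiquitinase A20, was at 39.6 CPM in chosen and 6.72 CPM in comparison cells, a log2 ratio of 2.56 (2.30 to 2.83), and of 3.17 within clusters. The inhibitor gene Nfkbie had a log2 ratio of 2.03 (1.68 to 2.38) and Nfkbib of 0.84 (0.64 to 1.04), and within clusters of 2.03 and 0.66. Birc3, an inhibitor of cell death, was at 68.5 CPM in chosen and 11.7 CPM in comparison cells, a log2 ratio of 2.55 (2.36 to 2.75), and of 1.87 within clusters. Tnfaip2 had a log2 ratio of 2.89 (2.57 to 3.22), and of 2.15 within clusters.

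Target genes whose products act on other cells were higher too. Icam1, a ligand for leukocyte integrins, was at 152 CPM in chosen and 32.3 CPM in comparison cells, a log2 ratio of 2.24 (2.12 to 2.36), and of 1.84 within clusters, and had a UMI in 38.4% of thinned chosen and 11.5% of thinned comparison cells. Vcam1, another adhesion molecule, was at 143 CPM in chosen and 45.7 CPM in comparison cells, with a log2 ratio of 1.65, and 0.89 within clusters. The cytokine gene Il6 was at 12.7 CPM in chosen and 2.83 CPM in comparison cells, a log2 ratio of 2.16 (1.75 to 2.60), and of 2.15 within clusters. Csf1, a macrophage growth factor, had a log2 ratio of 1.10 (0.95 to 1.25), and of 0.89 within clusters. The exceptions were Sod2, a mitochondrial antioxidant enzyme, at 125 CPM in chosen and 117 CPM in comparison cells, Tnfaip8 with a log2 ratio of -0.18, and Ptgs2. Within clusters Sod2 and Tnfaip8 had log2 ratios of 0.63 and 0.07. Ptgs2, which encodes a prostaglandin synthase, was at 24.6 CPM in chosen and 54.3 CPM in comparison cells, a log2 ratio of -1.14 (-1.32 to -0.97), but of 0.49 within clusters.

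**Figure D1:**
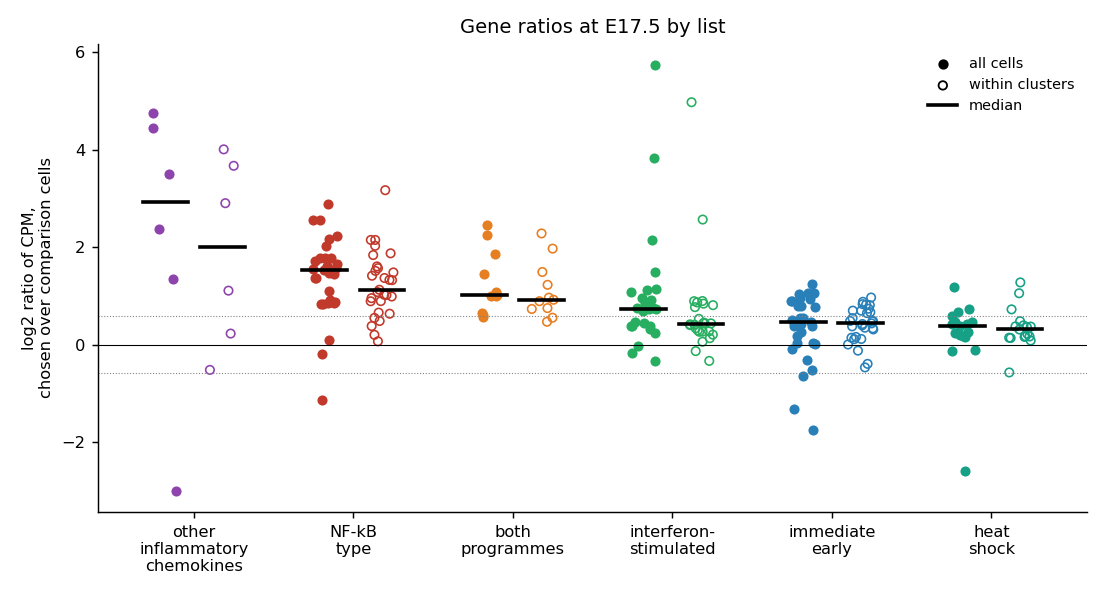
Log2 ratio of CPM (chosen over comparison cells) for each gene with at least 100 UMIs, by list, over all cells (filled) and within clusters (open). Black bars are list medians, dotted lines mark 1.5-fold, and the NF-kB type median of 1.54 (1.13 within clusters) stands above the immediate early median of 0.47 (0.44) and the heat shock median of 0.37 (0.31).

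The dissociation genes differed by less. Of 29 immediate early genes with enough UMIs, 11 were at least 1.5-fold higher in chosen cells and 3 lower, with a median log2 ratio of 0.47 (0.44 to 0.52), and of 0.44 within clusters, where 10 were higher and 0 lower. Their summed level was far above that of the NF-kB type list, at 17504 CPM in chosen and 10840 CPM in comparison cells. Jun was at 2626 CPM in chosen and 1255 CPM in comparison cells, a log2 ratio of 1.07 (1.04 to 1.09), and of 0.67 within clusters. Egr1 was at 2512 CPM in chosen and 1449 CPM in comparison cells, with a log2 ratio of 0.79, and 0.48 within clusters. Fos was at 2515 CPM in chosen and 1936 CPM in comparison cells, a log2 ratio of 0.38 (0.36 to 0.40), and of 0.31 within clusters, and had a UMI in 97.7% of thinned chosen and 87.7% of thinned comparison cells. The phosphatase gene Dusp1 and the nuclear receptor gene Nr4a1 had log2 ratios of -0.09 and 0.02, and within clusters of 0.11 and 0.38. The 3 genes at least 1.5-fold lower were Arc, Nr4a2 and Klf4, at log2 ratios of -1.75, -1.32 and -0.65, against -0.39, -0.12 and 0.12 within clusters.

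For the 17 heat shock genes the median log2 ratio was 0.37 (0.27 to 0.48). In chosen cells 3 of them were at least 1.5-fold higher and 1 was lower, and their summed level was 11668 CPM in chosen and 9845 CPM in comparison cells. Dnajb1, a co-chaperone, was at 342 CPM in chosen and 151 CPM in comparison cells, with a log2 ratio of 1.18 (1.11 to 1.24), and 0.72 within clusters. Hspa1a had a log2 ratio of 0.68 and Hspa1b, a near-identical copy between which reads can be split, of 0.23, and within clusters of 0.31 and 0.09. Hspb1, a small heat shock protein gene also expressed in muscle, was the 1 lower gene, at 102 CPM in chosen and 616 CPM in comparison cells, with a log2 ratio of -2.59, and -0.57 within clusters. The part of dissociation in the chemokine levels was not tested, and with 1 library it cannot be told apart from expression in the tissue.

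The 11 genes known to respond to both programmes lay between the other lists, with a median log2 ratio of 1.01 (0.97 to 1.08), and of 0.92 within clusters, and 10 of them were at least 1.5-fold higher. The highest ratios were those of Nfkbia, Irf1, Nfkbiz and Zfp36, in that order. Nfkbia was at 901 CPM in chosen and 164 CPM in comparison cells, a log2 ratio of 2.46 (2.41 to 2.51), and 2.28 within clusters, and had a UMI in 86.4% of thinned chosen and 37.8% of thinned comparison cells. Irf1, a transcription factor of interferon and NF-kB responses, was at 522 CPM in chosen and 110 CPM in comparison cells, with a log2 ratio of 2.24 (2.18 to 2.31), and 1.97 within clusters. Nfkbiz, a nuclear NF-kB cofactor, had a log2 ratio of 1.87 (1.78 to 1.95) and Zfp36, which destabilises cytokine transcripts, of 1.45 (1.41 to 1.48), and within clusters of 1.49 and 1.23. The lowest were Ier5 and Ier3, immediate early response genes, at 0.61 and 0.56, and within clusters at 0.55 and 0.96.

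Interferon-stimulated genes were higher by a median log2 ratio of 0.73 (0.42 to 1.06), which was 0.42 within clusters. Of 42 on the list, 25 had enough UMIs, of which 15 were at least 1.5-fold higher and 0 lower, and 8 and 0 within clusters. Cxcl9, a T cell chemokine induced by interferon gamma, had the highest ratio of all genes, with 237 UMIs in chosen and 7 UMIs in comparison cells, a log2 ratio of 5.73 (4.66 to 7.06), and of 4.97 within clusters, in 3.65% of thinned chosen and 0.146% of thinned comparison cells. Gbp5, a guanylate-binding protein gene, had 99 UMIs in chosen and 11 UMIs in comparison cells. Iigp1, an interferon-induced GTPase gene, was at 71.8 CPM in chosen and 16.3 CPM in comparison cells, with a log2 ratio of 2.14, and 0.77 within clusters. Most of the list's 1587 CPM in chosen cells came from Ifitm3, which restricts virus entry, at 983 CPM in chosen and 593 CPM in comparison cells, a log2 ratio of 0.73 (0.69 to 0.76), and of 0.45 within clusters. B2m, a subunit of MHC class I, was at 202 CPM in chosen and 162 CPM in comparison cells. Isg15 was at 5.05 CPM in chosen and 2.39 CPM in comparison cells. Ifit1 had 11 UMIs in chosen and 34 UMIs in comparison cells, a log2 ratio of -0.98 (-2.11 to 0.03). Within clusters its log2 ratio was 1.87, from 0.81 CPM in chosen and 0.06 CPM in comparison cells, too few UMIs to give a direction.

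Over all genes, the 15 with the highest ratios comprised 5 chemokine genes, 3 of the NF-kB type list, Nfkbia, and others. In order they were Cxcl9, Cxcl5, Cxcl2, Ccl12, Gbp5, Ccl7, Serpina3g, Tnfaip2, Tifa, Sele, Tnfaip3, Birc3, Stx11, Nfkbia and Casp4. Tifa, an adaptor that activates NF-kB, was at 75.3 CPM in chosen and 11.7 CPM in comparison cells, a log2 ratio of 2.69 (2.49 to 2.88), and of 1.64 within clusters. Casp4, an inflammatory caspase gene, had a log2 ratio of 2.44 (2.04 to 2.86), and of 1.69 within clusters, and Sele, an adhesion molecule best known from endothelium, had 83 UMIs in chosen and 21 UMIs in comparison cells. The 15 with the lowest ratios were mostly genes of intestinal epithelium, such as Gip, Lct and Cdx2, besides Gzma of lymphocytes, and the Epcam and Tyrobp limits act on the chosen cells alone. Gip, an enteroendocrine hormone gene, had 25 UMIs in chosen and 4491 UMIs in comparison cells.

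Cytokine receptors and adaptors, of NF-kB and of other pathways, were measured too. Of 19 such genes with enough UMIs, 9 were at least 1.5-fold higher and 0 lower, and within clusters 3 and 0, with a median log2 ratio of 0.44, and 0.21 within clusters. Osmr, the oncostatin M receptor, which signals through gp130, had a log2 ratio of 1.73 (1.56 to 1.91), and of 0.93 within clusters. Myd88, the adaptor of Toll-like and interleukin-1 receptors, and Il1r1, the interleukin-1 receptor, had log2 ratios of 1.29 and 1.08, and 0.73 and 0.63 within clusters. Tnfrsf1a, a receptor of tumour necrosis factor, had a log2 ratio of 0.64, and 0.21 within clusters.

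Levels of the NF-kB type list followed the chemokine sum on both sides of the threshold. In Col1a2 cells passing the Tyrobp and Epcam limits and grouped by a sum of 0, 1 to 2, 3 to 9, 10 to 19, 20 to 49 and at least 50 UMIs, the summed list was at 600.3, 696, 888, 1094, 1349 and 1864 CPM. Nfkbia was at 141, 235, 429, 636, 872 and 1209 CPM, and Tnfaip3 at 4.09, 8.75, 17.7, 23.1, 34.6 and 62.8 CPM. The immediate early list was at 10813, 13210, 15239, 16295, 17451 and 18809 CPM, Jun at 1193, 1664, 2180, 2311, 2670 and 2892 CPM, Egr1 at 1422, 1856, 2327, 2425, 2507 and 2608 CPM, and Fos at 2010, 2231, 2512, 2504, 2568 and 2458 CPM. Both lists were thus higher at each step of the sum, as were Nfkbia, Tnfaip3, Jun and Egr1, while Fos stood between 2458 and 2568 CPM at every sum of 3 or more. Lists outside inflammation were higher at each step too. Cell cycle genes were at 1273, 1497, 2050, 2279, 2544 and 2769 CPM, and matrix genes at 17857, 19970, 22755, 23479, 23822 and 25196 CPM. The groups were not matched for cell type. Median depths of these groups were 5475.5 to 6176 UMIs, the highest where the sum was highest. The parts of depth and of the cell mix were not tested.

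**Figure D2:**
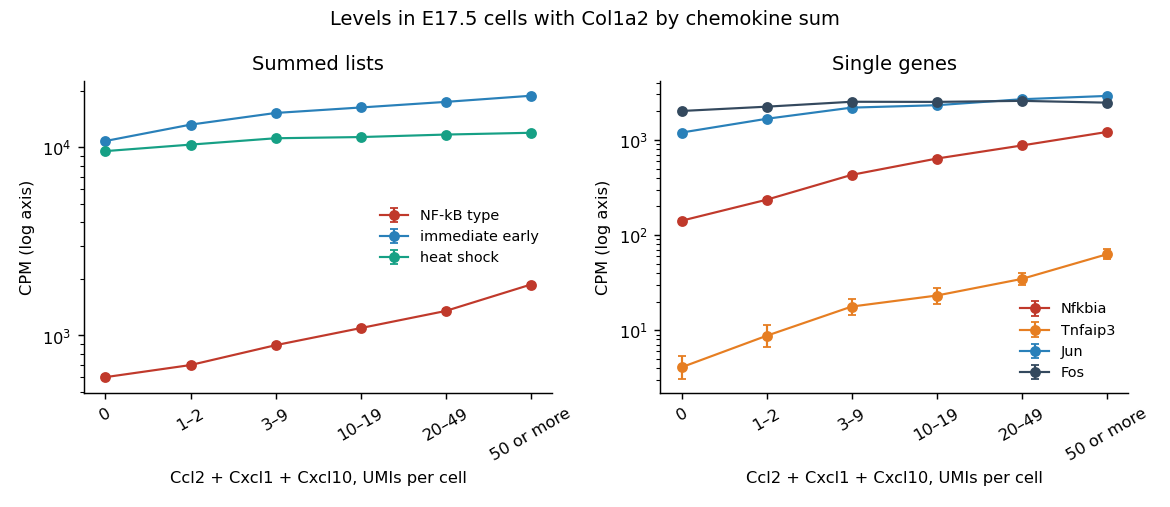
Level in CPM (log axis) of summed lists (left) and single genes (right) in E17.5 cells with at least 2 UMIs of Col1a2, by the summed UMIs of Ccl2, Cxcl1 and Cxcl10 per cell. Bars are exact Poisson intervals; Nfkbia was at 141 CPM at a sum of 0 and at 1209 CPM at 50 or more, and Fos at 2010 and 2458 CPM.

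Per cell, the lists overlapped between the groups. In cells thinned to 5000 UMIs, the NF-kB type list had a median of 6 UMIs in chosen cells (middle 50% of cells 4 to 10) and 3 in comparison cells (1 to 4). The immediate early list had 83 UMIs in chosen cells (62 to 108) and 52 in comparison cells (28 to 78.25), and the heat shock list 57 UMIs in chosen and 48 in comparison cells. Thinned Col1a2 cells passing the Tyrobp and Epcam limits were also split into 4 groups of rising list UMIs. By the immediate early list, the chosen share was 12.9, 36.3, 45.5 and 54.3% from the lowest to the highest group, and by the heat shock list 21.4, 36.0, 42.7 and 48.9%. By the NF-kB type list it was 14.3, 26.9, 41.1 and 74.9%. Chosen cells were thus present at low immediate early levels as well: 131 of 1019 cells with at most 45 immediate early UMIs were chosen, and these 131 averaged 4.75 NF-kB type UMIs, against 8.05 in the 530 chosen cells with at least 95.

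**Figure D3:**
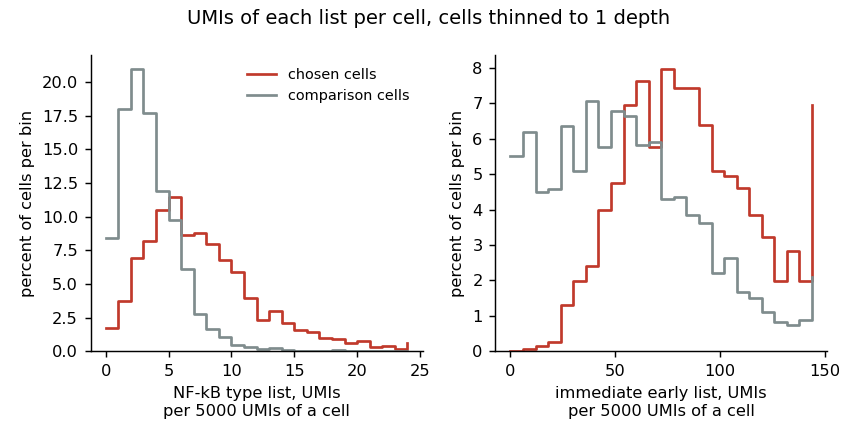
Distribution of summed list UMIs per cell, in percent of cells per bin, for chosen (red) and comparison cells (grey) thinned to 5000 UMIs; the last bin holds all higher values. The medians were 6 UMIs in chosen and 3 in comparison cells for the NF-kB type list (left), and 83 UMIs in chosen and 52 in comparison cells for the immediate early list (right).

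The chosen cells were not 1 cluster. They stood in 24 of 30 clusters, and their share of the Col1a2 cells of the 14 compared clusters ran from 5.25 to 59.7%. The most, 510 cells (23.7% of the chosen), were in cluster 0, led by Cxcl13, Ogn, Dpt and Dcn, where they were 34.6% (32.2 to 37.1%) of the Col1a2 cells. Cluster 3, led by Col6a5, Ccl11 and Adamdec1, held 358 chosen cells (54.8% of its Col1a2 cells), and cluster 7, led by histone genes of cycling cells, held 265 (58.0%). The highest share, 59.7% (54.6 to 64.7%), was in cluster 9, led by Cox4i2, Ndufa4l2, Notch3 and Pdgfrb. Clusters 9 and 28, both with Cox4i2 and Notch3 among their leading genes, together held 256 chosen cells (11.9%). In them Notch3 was at 236 and 237 CPM and Rgs5, another pericyte gene, at 505 and 550 CPM, while Dcn was at 1348 and 891 CPM, against 6534 CPM in cluster 0. Rgs5 was as high in clusters 8 and 25, at 616 and 479 CPM, where Notch3 was at 13.8 CPM in each and which held 129 and 45 chosen cells. The clusters that held chosen cells thus differed in fibroblast and pericyte genes. The lowest share, 5.25% (3.52 to 7.50%), was in cluster 1, led by the muscle genes Actg2 and Des. Cluster 6, led by Bmp3, Nrg1 and Pdgfra as in subepithelial fibroblasts, had 14.1% (11.2 to 17.4%).

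Within each of the 14 clusters the summed NF-kB type list was higher in chosen than in comparison cells, with log2 ratios of 0.54 to 1.55. The immediate early list had ratios of 0.03 to 1.07, the heat shock list of -0.03 to 0.55 and the interferon list of 0.10 to 0.94. The NF-kB type ratio was above the immediate early ratio in 13 of 14 clusters. In the other, cluster 5, led by Vcam1 and Nkx2-3, they were 0.99 (0.86 to 1.12) and 1.07 (1.04 to 1.11). In cluster 8, led by Cdo1, Chodl and Smoc2, the NF-kB type ratio was 0.54 (0.39 to 0.68) and the immediate early ratio 0.03 (-0.01 to 0.06). Cluster 9 had 1377 CPM of the NF-kB type list in chosen and 472 CPM in comparison cells, the highest ratio, beside 22143 CPM in chosen and 14417 CPM in comparison cells of the immediate early list.

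**Figure D4:**
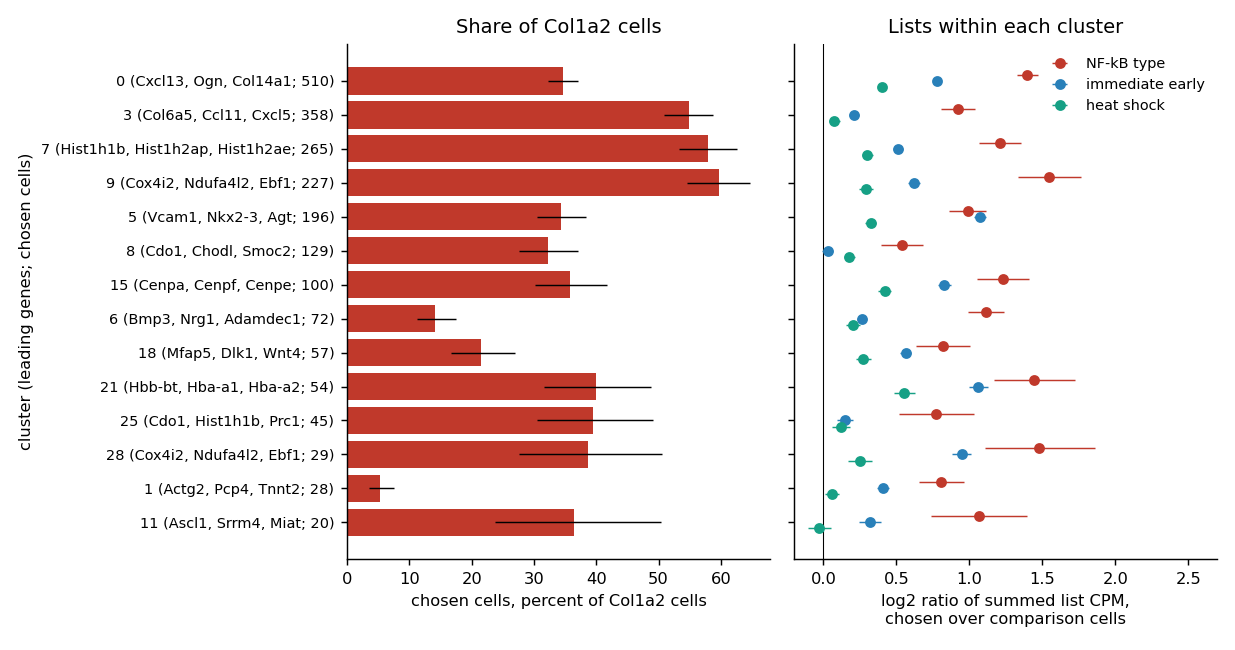
Left, chosen cells as percent of the Col1a2 cells of each cluster; right, log2 ratio of summed list CPM (chosen over comparison cells) within the cluster. Labels give the cluster, its leading genes and its chosen cells; lines are 95% counting intervals, shares run from 5.25% (cluster 1) to 59.7% (cluster 9), and all 14 NF-kB type ratios lie above 0.

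The 3 chemokines did not lead in the same cells. Ccl2 had the most UMIs in 843 chosen cells (39.2%), Cxcl1 in 724 (33.7%) and Cxcl10 in 538 (25.0%), with ties in 44. Ccl2 led in 76.7% of the chosen cells of cluster 8 and 82.2% of those of cluster 25, both with Cdo1, Smoc2 and Thbs4 among their leading genes. Cxcl1 led in 70.2% of the 57 chosen cells of cluster 18, led by Mfap5 and Dlk1, and in 55.5% of those of cluster 9. Cxcl10 led in 41.7% of those of cluster 6. In cluster 3 Cxcl10 led in 36.0% and Cxcl1 in 39.4%.

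Some interferon and NF-kB genes were higher in cells led by Cxcl10 than in cells led by Ccl2. Of 13 interferon-stimulated genes compared between them, 2 were at least 1.5-fold higher where Cxcl10 led and 0 lower. Their median log2 ratio was 0.29. Iigp1 was at 113 CPM (102 to 125) where Cxcl10 led and 50.3 CPM (44.6 to 56.6) where Ccl2 led, and Irf1 at 644 CPM where Cxcl10 led and 493 CPM where Ccl2 led. The NF-kB type list was at 1659 CPM where Cxcl10 led, 1319 CPM where Cxcl1 led and 1378 CPM where Ccl2 led. Its median log2 ratio, cells led by Cxcl10 over cells led by Ccl2, was 0.26, with 2 of 24 genes at least 1.5-fold higher and 0 lower. Of all 7916 genes compared there, 1.71% were higher and 2.84% lower. For cells led by Cxcl10 over cells led by Cxcl1 the median was 0.29, with 4 of 25 genes higher and 1 lower, beside 0.962 and 2.05% of all 7799 genes. For cells led by Cxcl1 over cells led by Ccl2 it was -0.05, with 1 of 26 higher and 2 lower, beside 2.86 and 3.34% of all 8494 genes. The matrix list was at 23831 CPM in cells led by Cxcl10, 21470 CPM in cells led by Cxcl1 and 26847 CPM in cells led by Ccl2. Immediate early genes were at 17345, 18699 and 16546 CPM in the same order. The clusters differ in their leading chemokine, and their part in these differences was not tested.

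Among lists outside inflammation, some ratios shrank within clusters and others did not. Of 30 extracellular matrix genes 7 were at least 1.5-fold higher in chosen cells and 1 lower, but 0 and 0 within clusters, where the median log2 ratio was 0.08. Of 25 cell cycle genes 20 were higher and 0 lower, among them Top2a at 311 CPM in chosen and 134 CPM in comparison cells, and within clusters 0 and 0, with Top2a at a log2 ratio of 0.17. Subepithelial fibroblast genes were lower, 9 of 11 by at least 1.5-fold and 4 of 11 within clusters, as in Nrg1, a growth factor for epithelium, with a log2 ratio of -1.41 (-1.61 to -1.22), and of -0.53 within clusters. Sterol synthesis genes had a median log2 ratio of -0.49, and of -0.16 within clusters. Smooth muscle markers had a median log2 ratio of -2.98, which shrank to -0.68 within clusters, where 5 of 8 were still at least 1.5-fold lower. Neuronal markers were lower in 4 of 6 in both forms, with medians of -0.67 and -0.66, Cajal cell markers in 2 of 3 in both, with medians of -1.16 and -0.68, and the outer mesenchyme list had medians of -0.19 and -0.24.

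The same rule at the other stages found fewer cells. At E15.5, 336 of 4780 Col1a2 cells passed it (7.03%, 6.32 to 7.79%). At E17.5 the share was 32.2%, and at P7 222 of 1704 passed (13.0%, 11.5 to 14.7%). Median depths of the Col1a2 cells were 8075.5, 5788 and 4766 UMIs, and after thinning to 5000 UMIs the shares were 3.80, 30.9 and 15.4%. The makeup differed too. In stage order, Ccl2 in the chosen cells was at 869, 2346 and 293 CPM, and Cxcl1 at 829, 1938 and 2721 CPM. Each stage is 1 library, so stage and library cannot be told apart.

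Over the comparison cells of the same stage, the NF-kB type median log2 ratio of the chosen cells was 0.46, 1.54 and 1.36 in stage order. At E15.5, 10 of 22 NF-kB type genes were at least 1.5-fold higher, and 0 lower, beside 4.00 and 14.1% of all 11568 genes. At P7 it was 18 of 22 higher and 1 lower, beside 14.5 and 19.6% of all 8977 genes. The immediate early medians were 0.62, 0.47 and 0.85, so at E15.5 they stood above the NF-kB type median. The interferon medians were 0.05, 0.73 and -0.01. For Nfkbia the log2 ratio was 2.06 (1.95 to 2.16) at the first stage, 2.46 at the second and 2.04 (1.94 to 2.15) at P7. Levels of Fos in the chosen cells were 1452, 2515 and 5454 CPM.

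**Figure D5:**
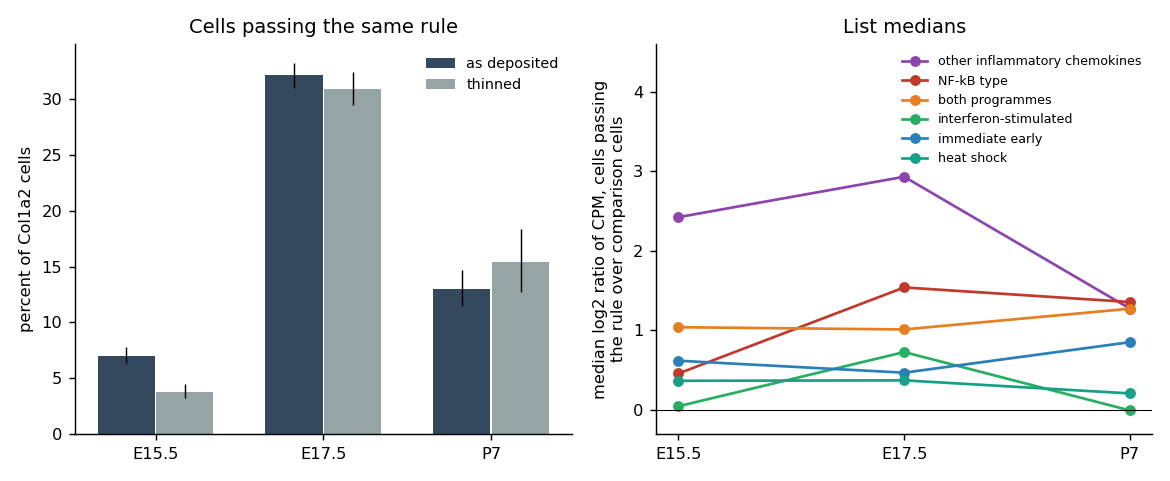
Left, cells passing the rule as percent of Col1a2 cells at each stage, as deposited (32.2% at E17.5) and with cells thinned to 5000 UMIs (30.9%), with 95% counting intervals. Right, median log2 ratio of CPM of each list, cells passing the rule over comparison cells of the same stage; the NF-kB type median was 0.46, 1.54 and 1.36 at E15.5, E17.5 and P7.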

How the data were processed

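The deposited matrices hold raw UMI counts, and per the file headers every entry is an integer, so the authors had not scaled them. The submitters' processing notes list Cell Ranger 7.2.0, mm10 and GRCm38. Counting parameters and any cell filter are not given in the sources used here. Libraries at E15.5, E17.5 and P7 hold 93501273, 94023160 and 116038115 UMIs over 8447, 11598 and 8391 cells. The 8447 barcode names given are identical in all 3 libraries and do not match the cells at E17.5, so shared cells could not be counted and barcodes were not used.

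Counts were summed over chosen and over comparison cells and scaled to CPM. Genes under 100 UMIs over both groups were left out, a gene under 3 UMIs was set to a floor of 3, and called means at least 1.5-fold. Cells were thinned without replacement (seed 0). E17.5 cells were clustered with scanpy 1.11.5 and leidenalg 0.10.2 (10000 counts per cell, 2000 variable genes, 30 components, 15 neighbours, resolution 1) without 163 genes of the lists under study. Clusters are called by number, since names were not needed. Scrublet (expected rate 6%) marked 453 cells, 95 chosen (4.42%) and 162 comparison (4.86%); they were kept, and left out in an alternative. Ratios, intervals and thinning were tested on simulated data. Named genes are members of the lists with 100 or more UMIs and the 15 highest and 15 lowest ratios over all genes; genes below 100 UMIs, and genes quoted for cells grouped by their leading chemokine, were chosen after their values were seen. The members, the 27 gene lists and the thresholds were chosen with earlier results of these data known. Gene positions are from GENCODE M21. Promoters matched 13 of the 15 highest genes. Python 3.11.15, numpy 2.4.6, scipy 1.17.1, pandas 2.3.3 and matplotlib 3.10.9 were used.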

Additional observations from a re-analysis of the deposited data

How the results depend on the processing

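The chosen share of Col1a2 cells, 32.2%, was 30.9% in thinned cells, 21.7% with a sum of at least 20, 41.3% with at least 5 and 40.5% with at least 10 UMIs of Col1a2. The NF-kB type median log2 ratio, 1.54, was 1.13 within clusters and 1.18 with at least 10 UMIs of Col1a2. The immediate early median, 0.47, was 0.44 within clusters, 0.42 in thinned cells, 0.41 with the Tyrobp and Epcam limits also on comparison cells, and 0.57 with at least 10 UMIs of Col1a2. The interferon median, 0.73, was 0.42 within clusters. The genes at least 1.5-fold higher, 979, were 316 within clusters, 603 in thinned cells and 514 with at least 10 UMIs of Col1a2. The genes at least 1.5-fold lower, 1371, were 544, 728 and 553 under the same 3 alternatives and 2542 with genes of at least 20 UMIs.

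Among 99 genes past 1.5-fold of the inflammation and dissociation lists and the highest and lowest genes, and 11 list medians, the direction reversed for the Cajal cell marker median (0.23 with at least 10 UMIs of Col1a2), Ptgs2 (0.49 within clusters, 0.032 with at least 10 UMIs of Col1a2), Klf4 (0.12 within clusters) and Ccl25 (0.055 within clusters, 0.18 with the limits on comparison cells). Of 990 values for these genes 985 kept their direction, and so did 110 of 111 for the medians; leaving out cells marked as doublets reversed none. Over all lists, 17 of 170 genes past 1.5-fold reversed within clusters, 14 of them outside those 99, in marker, fibroblast, matrix, sterol and cell cycle lists, as in F3 (0.26), Grem1 (0.14) and Erbb3 (2.16). The cause of these changes was not tested beyond the cluster mix. No paired analysis was possible because each stage is 1 library.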
